A study of Mus musculus with 2 samples.

Results

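CUL3 ligases are ubiquitin ligases built on the scaffold protein cullin 3, and the genes described here encode that scaffold, its core partners and the BTB-domain adaptors that choose its substrates. The members are 43 named genes, taken by symbol from the 32285 features of the deposited count tables, and all 43 were found there. They comprise 4 genes of the scaffold and its core, the 2 SPOP-family adaptors, 23 KLHL and other Kelch-type BTB genes, 5 KCTD genes, 3 RHOBTB genes and 6 genes of the BTBD and IBTK group, so that 39 of the 43 are adaptors. RNA was counted as unique molecular identifiers (UMIs, 1 per captured molecule) in single cells from pancreatic islets of female mice aged 12 weeks on a C57BL/6 background. There were 2 libraries, 1 from Spop βKO mice, in which Spop is deleted in beta cells, and 1 from Spop fl/fl mice, which carry the floxed allele. Islets of both spent time in culture medium with glucose before dispersal. The driver of the beta-cell deletion, the exons removed and the number of mice behind each library are not given in the labels, so whether a library pools animals is unknown.

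In a cullin-RING ligase the scaffold holds a substrate adaptor at one end and the RING protein RBX1, which recruits the ubiquitin-charged enzyme, at the other. Attachment of the small modifier NEDD8 switches the ligase on, the COP9 signalosome removes it, and CAND1 exchanges adaptors on scaffolds that lack NEDD8. For CUL3 the adaptor is a BTB protein that also carries the substrate-binding domain, so the set of BTB proteins in a cell sets what CUL3 can ubiquitinate. SPOP, a MATH-BTB adaptor, is known in beta cells for binding the transcription factor PDX1, and KEAP1, a Kelch-BTB adaptor, for holding down the antioxidant factor NRF2.

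The Spop βKO library held 10033 barcodes and 89977773 UMIs, of which 8842 barcodes passed the filters on detected genes and mitochondrial share, and the Spop fl/fl library held 7768 barcodes and 82541585 UMIs, of which 6850 passed. The libraries shared 21 barcodes. Cells were grouped by the hormone RNA that led in them, with a lead of at least 2 times over the next hormone and at least 1% of the cell's UMIs. Insulin-leading cells numbered 7052 in the Spop βKO and 3876 in the Spop fl/fl library, and Gcg-leading cells, with glucagon RNA in front, 1024 in the Spop βKO and 1745 in the Spop fl/fl library. Sst-leading cells, with somatostatin in front, numbered only 8 in the Spop βKO and 7 in the Spop fl/fl library under the same rule. A somatostatin gate chosen after the data had been seen (at least 5 Sst UMIs, at least 0.1% of UMIs from Sst, at most 2% each from insulin and Gcg and 4% from Ppy) gave 67 Spop βKO and 59 Spop fl/fl cells. In these cells Hhex, a delta-cell transcription factor, stood at 157 CPM in the Spop βKO and 123 CPM in the Spop fl/fl library (CPM being UMIs scaled to 1000000 per sum), against 2.95 CPM in the Spop βKO and 2.87 CPM in the Spop fl/fl insulin-leading cells, and Lepr was the 1 delta marker of 6 with no UMI. All 9 beta markers were detected in insulin-leading cells and all 8 alpha markers in Gcg-leading cells of both libraries.

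Levels below are UMIs summed over the cells of a class, as CPM and scaled by trimmed-mean (TMM) factors from edgeR. The chemistry counts molecules by their 3′ end, so a level does not scale with transcript length. Capture and the assignment of reads can still differ between genes and were not tested. Orders of genes by level below are therefore orders of counted UMIs and only approximate for RNA. With 1 library per genotype there is no test of the genotype: each ratio between libraries carries a 95% interval for counting error only, and a gene is called past the fold where it differs at least 1.5-fold with an interval that leaves out 0 on the log2 scale and a mean of at least 10 CPM. Differences between cell classes were tested over both libraries with edgeR, the library being a block, so the 2 replicates of a class are libraries of different genotype.

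The deleted gene itself was not lower in the Spop βKO library. Spop (chr11:95414080-95493406, plus strand, mm10) gave 85.1 CPM in insulin-leading cells of the Spop βKO library, from 5561 UMIs, and 67.2 CPM in those of the Spop fl/fl library, from 2923 UMIs. The log2 ratio was 0.34 (95% counting interval 0.28 to 0.41), which is under the fold limit. In Gcg-leading cells, where the deletion is not directed, the levels were 78.3 CPM in the Spop βKO and 74.9 CPM in the Spop fl/fl library, with a log2 ratio of 0.07 (−0.08 to 0.21). A 3′ count reads the last of the 11 exons of Spop-202, an exon of bases 95491697 to 95493406 whose stop codon starts at 95491839, and since the removed exons are not named in the labels these counts do not check the deletion. Spopl, the paralog that can pair with SPOP, stood at 39.7 CPM in the Spop βKO and 45.5 CPM in the Spop fl/fl insulin-leading cells, a log2 ratio of −0.20 (−0.28 to −0.11).

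Promoters of 33 of the 43 members are in the RefSeq table of the mouse genome (GRCm38.p6), as 43 windows of 300 bases that run from 250 before to 50 after a start. Those of 3 adaptors are printed: Spop as the deleted gene, Klhl13 as the adaptor with the largest difference between cell classes (the most upstream of its 5 starts) and Klhl12 because, of the windows read, its window held the most kinds of match. Capitals mark matches on either strand to the GC box GGGCGG, the cyclic AMP response element TGACGTCA and the antioxidant response element TGACNNNGC.
Spop, chr11:95413833-95414132, plus strand: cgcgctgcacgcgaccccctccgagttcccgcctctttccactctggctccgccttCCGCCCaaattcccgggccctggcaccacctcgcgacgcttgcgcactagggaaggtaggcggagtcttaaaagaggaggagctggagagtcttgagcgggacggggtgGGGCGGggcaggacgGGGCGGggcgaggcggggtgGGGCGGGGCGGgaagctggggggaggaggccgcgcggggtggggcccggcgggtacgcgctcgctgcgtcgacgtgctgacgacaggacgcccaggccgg
Klhl13, chrX:23365033-23365332, minus strand: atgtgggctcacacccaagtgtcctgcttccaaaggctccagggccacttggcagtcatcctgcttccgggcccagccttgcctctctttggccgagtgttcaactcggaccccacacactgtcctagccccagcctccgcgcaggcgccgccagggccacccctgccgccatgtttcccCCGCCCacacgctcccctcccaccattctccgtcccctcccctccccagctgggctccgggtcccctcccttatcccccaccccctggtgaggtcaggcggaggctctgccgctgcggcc
Klhl12, chr1:134455281-134455580, plus strand: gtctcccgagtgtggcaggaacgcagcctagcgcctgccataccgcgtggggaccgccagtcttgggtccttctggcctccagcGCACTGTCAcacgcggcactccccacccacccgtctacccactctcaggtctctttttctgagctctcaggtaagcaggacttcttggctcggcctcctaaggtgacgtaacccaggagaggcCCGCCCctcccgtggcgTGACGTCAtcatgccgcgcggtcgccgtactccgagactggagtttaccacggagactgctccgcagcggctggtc
The Spop window held 5 GC box matches, a pair of them overlapping, and none of the other motifs. The Klhl13 window held 1 GC box, and the Klhl12 window 1 match of each of the 3 kinds. The GC box, added after the sequences had been read, was in 36 of the 43 member windows and in 35.7% of the 32851 windows of the whole table. The antioxidant response element was in 6 of the 43 member windows (Btbd2, Kctd10, Klhl12, Klhl28 and other starts of Klhl13 and Rhobtb1) and in 12.4% of all. The cyclic AMP response element was in 1 member window, that of Klhl12, and in 1.79% of all, the forkhead motif TGTTTAC in 0 and in 3.65% of all, and the homeodomain motif TAATTA in 1, that of Btbd3, and in 5.29% of all. The motifs can overlap one another, and a match describes letters only. No count of UMIs bears on these windows directly.

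Nedd8, Rbx1 and Cul3 were the most abundant of the members in insulin-leading cells, and none of the 4 core genes passed the fold between libraries in either class. Nedd8, the modifier, had 251.8 CPM in the Spop βKO and 250.5 CPM in the Spop fl/fl insulin-leading cells. Rbx1, the RING subunit, had 249.3 CPM in the Spop βKO and 245.7 CPM in the Spop fl/fl library, and Cul3, the scaffold (chr1:80264923-80340480, minus strand, mm10), 132.0 CPM in the Spop βKO and 139.5 CPM in the Spop fl/fl library. Their log2 ratios were 0.01, 0.02 and −0.08, so these differences were small beside the fold limit. Cand1, the exchange factor, was lower in the Spop βKO library, at 56.0 CPM against 71.7 CPM in the Spop fl/fl library, a log2 ratio of −0.36 (−0.43 to −0.29). In Gcg-leading cells Cul3 stood at 147.4 CPM in the Spop βKO and 148.9 CPM in the Spop fl/fl library. Nedd8 had 242.3 CPM there in the Spop βKO and 193.9 CPM in the Spop fl/fl library, with a log2 ratio of 0.32 (0.24 to 0.40), and Rbx1 had 287.2 CPM in the Spop βKO and 236.0 CPM in the Spop fl/fl library, with a ratio of 0.28 (0.21 to 0.36).

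Each adaptor was less abundant than Cul3 in insulin-leading cells of both libraries. Over the 39 adaptors the mean level of the libraries in insulin-leading cells ran between 1.04 CPM for Klhl13 and 76.2 CPM for Spop, with a median of 22.4 CPM, where the 8581 genes at or above 10 CPM in these cells had a median of 37.3 CPM. Of the 39, 32 reached 10 CPM. Summed, the adaptors came to 1050.6 CPM in the Spop βKO and 1046.5 CPM in the Spop fl/fl insulin-leading cells, and to 1031.7 CPM in the Spop βKO and 1065.9 CPM in the Spop fl/fl Gcg-leading cells, so their total was nearly the same in both libraries and both classes while single adaptors differed.

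The 6 most abundant adaptors in insulin-leading cells were Spop, Btbd1, Keap1, Klhl9, Rhobtb1 and Lztr1, by the mean of both libraries. Btbd1, a BTB protein that in human cells binds topoisomerase, had 58.2 CPM in the Spop βKO and 75.2 CPM in the Spop fl/fl library. Keap1 (chr9:21229730-21239361, minus strand) had 69.4 CPM in the Spop βKO and 62.7 CPM in the Spop fl/fl library. Klhl9, which in human cells acts with KLHL13 on Aurora B in mitosis, had 52.8 CPM in the Spop βKO and 52.3 CPM in the Spop fl/fl library. Lztr1, the adaptor for RAS-family GTPases, had 44.2 CPM in the Spop βKO and 57.3 CPM in the Spop fl/fl library, and Rhobtb1 had 62.0 CPM in the Spop βKO and 40.1 CPM in the Spop fl/fl library. The order among them was not the same in the libraries: Spop led in the Spop βKO library and Btbd1 in the Spop fl/fl library. With each cell weighted equally 4 of the 6 stayed, Klhl24 and Spopl taking the places of Lztr1 and Rhobtb1.

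A further 7 adaptors followed in mean level in insulin-leading cells, Spopl among them. Klhl7 had 50.6 CPM in the Spop βKO and 44.4 CPM in the Spop fl/fl library, Klhl24, which targets keratins in skin, 45.6 CPM in the Spop βKO and 42.3 CPM in the Spop fl/fl library, and Ibtk, named as an inhibitor of Bruton tyrosine kinase, 48.5 CPM in the Spop βKO and 39.2 CPM in the Spop fl/fl library. Kbtbd2, which in mouse adipose tissue limits the regulatory subunit of PI3-kinase, had 40.4 CPM in the Spop βKO and 46.5 CPM in the Spop fl/fl library, Kctd13, an adaptor for RHOA, 37.4 CPM in the Spop βKO and 40.1 CPM in the Spop fl/fl library, and Btbd9, a gene at a human locus for restless legs, 41.1 CPM in the Spop βKO and 35.1 CPM in the Spop fl/fl library. The 7 adaptors with a mean under 10 CPM were Klhl5, Klhl13, Klhl18, Klhl25, Kbtbd8, Kctd17 and Rhobtb2, between 1.03 and 9.57 CPM in either library. The remaining 19 adaptors, from Klhl22 at 33.3 CPM down to Kbtbd4 at 11.1 CPM in mean level, lay between these groups.

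**Figure D1:**
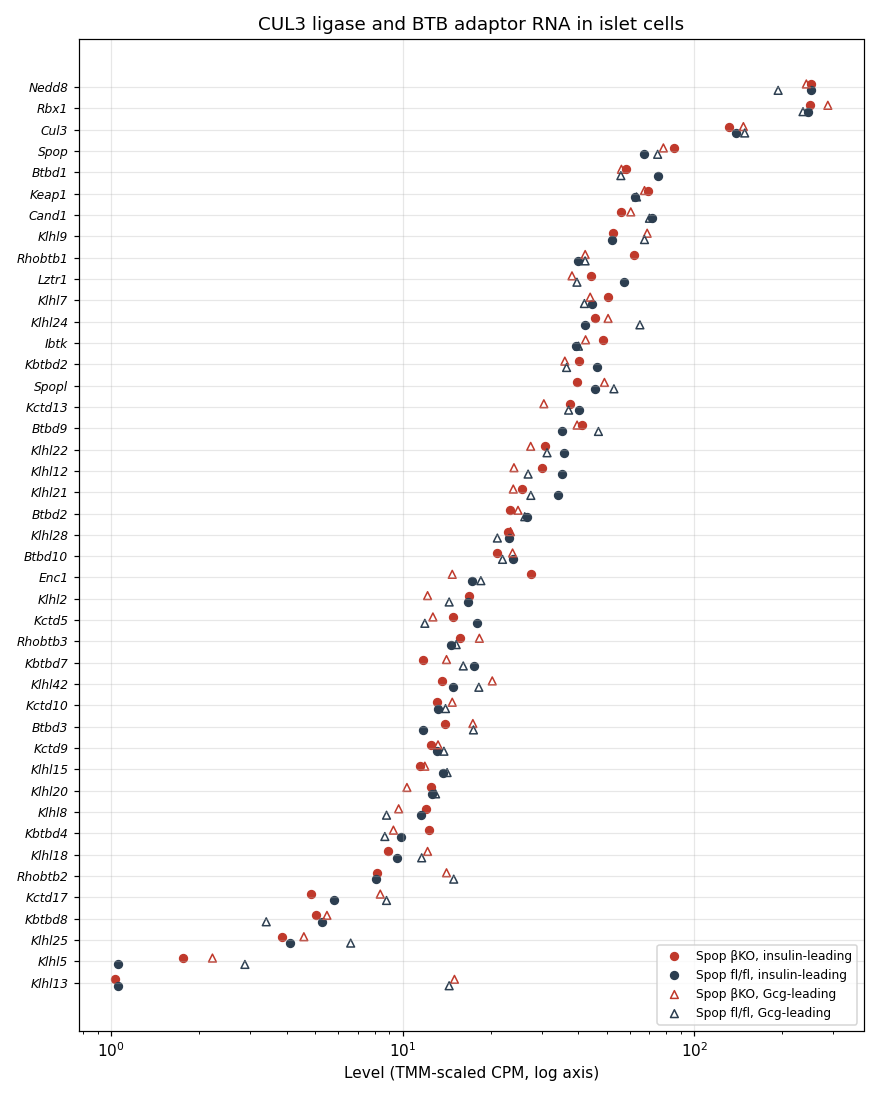
Level of each of the 43 members (TMM-scaled CPM, log axis) in insulin-leading cells (filled circles) and Gcg-leading cells (open triangles) of the Spop βKO library (red) and the Spop fl/fl library (dark blue), ordered by the mean in insulin-leading cells. Nedd8, Rbx1 and Cul3 lie above 130 CPM in every sum, and Klhl13 lies near 1 CPM in insulin-leading and at 14.4 to 15.04 CPM in Gcg-leading cells.

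Between the libraries, 3 of the 36 members at or above 10 CPM in insulin-leading cells passed the fold, where 10.0% of all 8581 genes did (6.86% higher and 3.18% lower in the Spop βKO library), so the members' share was near the background. Enc1 and Rhobtb1 were higher and Kbtbd7 was lower in the Spop βKO library. The 36 members had a median log2 ratio of −0.01, within −0.59 to 0.68, and all genes −0.04. By role, 1 of 18 Kelch-type genes was past the fold upward and 1 downward, 1 of 2 RHOBTB genes was past it upward, and 0 of the 4 core genes, 2 SPOP-family, 4 KCTD and 6 BTBD and IBTK genes were past it.

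Enc1 (chr13:97241105-97253034, plus strand, mm10), a Kelch protein known for binding actin in the nervous system, had 27.6 CPM in the Spop βKO and 17.2 CPM in the Spop fl/fl insulin-leading cells, from 1800 Spop βKO and 748 Spop fl/fl UMIs. The log2 ratio was 0.68 (0.56 to 0.80). In Gcg-leading cells its levels were the other way round, with 14.8 CPM in the Spop βKO and 18.5 CPM in the Spop fl/fl library. Rhobtb1 (chr10:69151434-69291791, plus strand) had 4049 UMIs in the Spop βKO and 1741 in the Spop fl/fl insulin-leading cells, and its log2 ratio was 0.63 (0.55 to 0.71). In Gcg-leading cells Rhobtb1 was level, at 42.2 CPM in each library. Kbtbd7 (chr14:79426511-79431036, plus strand), an adaptor that in human cells acts on the RAC activator TIAM1, had 11.7 CPM in the Spop βKO and 17.5 CPM in the Spop fl/fl insulin-leading cells, a log2 ratio of −0.59 (−0.73 to −0.44) that is only just past the limit.

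Just inside the limit lay Klhl21, an adaptor for Aurora B, with 25.7 CPM in the Spop βKO and 34.2 CPM in the Spop fl/fl insulin-leading cells and a log2 ratio of −0.41. Lztr1 followed at −0.37, Btbd1 at −0.37 and Cand1 at −0.36. On the other side came Spop at 0.34, Kbtbd4 at 0.32 and Ibtk at 0.31. Keap1 had a ratio of 0.15 (0.08 to 0.21). Klhl5 had a ratio of 0.73 but lay under the level limit, with 1.76 CPM in the Spop βKO and 1.06 CPM in the Spop fl/fl library.

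**Figure D2:**
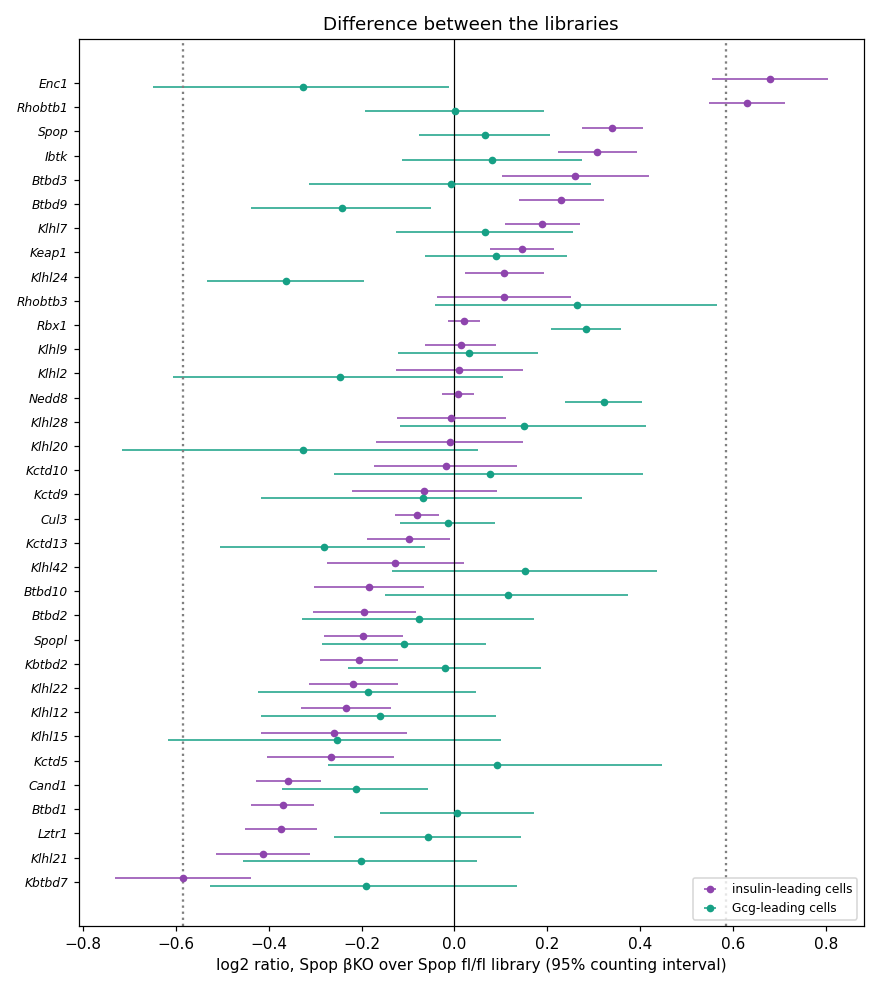
Log2 ratio of the Spop βKO over the Spop fl/fl library for the members at or above the level limit in both classes, in insulin-leading (purple) and Gcg-leading (green) cells, with 95% counting intervals as bars and the 1.5-fold limit dotted. Enc1 and Rhobtb1 lie past the limit on the right in insulin-leading cells, Kbtbd7 on the left, and no member lies past it in Gcg-leading cells.

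Other features of the insulin-leading cells differed between the libraries too. The 6 macrophage markers summed to 86.1 CPM in the Spop βKO and 11.7 CPM in the Spop fl/fl insulin-leading cells, with Adgre1 at 0 in the Spop fl/fl library. The 5 ductal markers summed to 384 CPM in the Spop βKO and 234 CPM in the Spop fl/fl library, with Cftr at 0 in the Spop fl/fl library, the 4 PP-cell markers to 1674 CPM in the Spop βKO and 1003 CPM in the Spop fl/fl library, and the 6 acinar markers to 1.69 CPM in the Spop βKO and 2.23 CPM in the Spop fl/fl library. Heat-shock genes passed 5 UMIs per 10000 in 4.48% of the Spop βKO and 15.1% of the Spop fl/fl insulin-leading cells. Without those cells the log2 ratio of Enc1 was 0.70, of Rhobtb1 0.61, of Spop 0.32 and of Kbtbd7 −0.55, which is under the fold limit. The part of the marker RNA in the members' differences was not tested. In a sum over cells, fewer cells of a type and less RNA per cell cannot be told apart.

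The differences of Rhobtb1, Spop and Enc1 were not even over insulin-leading cells. When the cells were divided by the share of their UMIs that came from Ins1 and Ins2, with levels as CPM of the UMIs outside insulin (a division made after the data had been seen), Rhobtb1 in the Spop βKO library had 54.5, 59.1, 64.6, 79.9 and 112 CPM from the lowest to the highest insulin share. In the Spop fl/fl library it had 48.1, 43.7, 39.7, 36.3 and 48.6. Its log2 ratio thus ran through 0.18, 0.43, 0.70, 1.14 and 1.20. Spop had 96.0, 91.9, 92.4, 97.7 and 103 CPM in the Spop βKO library and 85.8, 72.9, 64.5, 71.7 and 53.5 in the Spop fl/fl library, so its ratio was 0.16 in the cells with 1 to 5% insulin and 0.95 (0.71 to 1.20) in those above 30%. Enc1 went the other way, with ratios of 0.86, 0.85, 0.64, 0.27 and −0.02. Enc1 stood at 25.6 in the Spop βKO and 14.1 in the Spop fl/fl cells with the least insulin, and at 35.4 in the Spop βKO and 36.0 in the Spop fl/fl cells with the most. Depth differed along the same divisions. Median UMIs per cell were 5386, 4458, 8735.5, 10223 and 12074 in the Spop βKO library and 7070, 10000, 10632, 8652.5 and 8792 in the Spop fl/fl library. Above 30% insulin there were 1000 Spop βKO and 517 Spop fl/fl cells. These levels have no TMM scaling, and the part of depth in the ratios was not tested.

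Kbtbd7 had a lower level in the Spop βKO library at every insulin share, with ratios of −0.61, −0.54, −0.84, −0.55 and −0.19. The interval of the last, above 30% insulin, was −0.65 to 0.28 and held 0. Keap1 had ratios of 0.10, 0.11, 0.27, 0.42 and 0.49. The share of all genes past the fold also grew with insulin share, being 5.45%, 10.4%, 15%, 27.1% and 30.3%, beside 2, 2, 5, 8 and 7 members past it, so genes in general passed the fold more often at a high insulin share. Macrophage markers summed to 117, 81.0, 53.7, 77.0 and 107 CPM in the Spop βKO library and to 9.17, 9.53, 9.91, 17.6 and 21.0 CPM in the Spop fl/fl library across the same divisions. Ductal markers summed to 379, 384, 418, 390 and 342 CPM in the Spop βKO library and to 309, 263, 203, 151 and 104 CPM in the Spop fl/fl library, where each higher insulin share had a lower sum. The part of either marker list in the members' ratios was not tested.

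**Figure D3:**
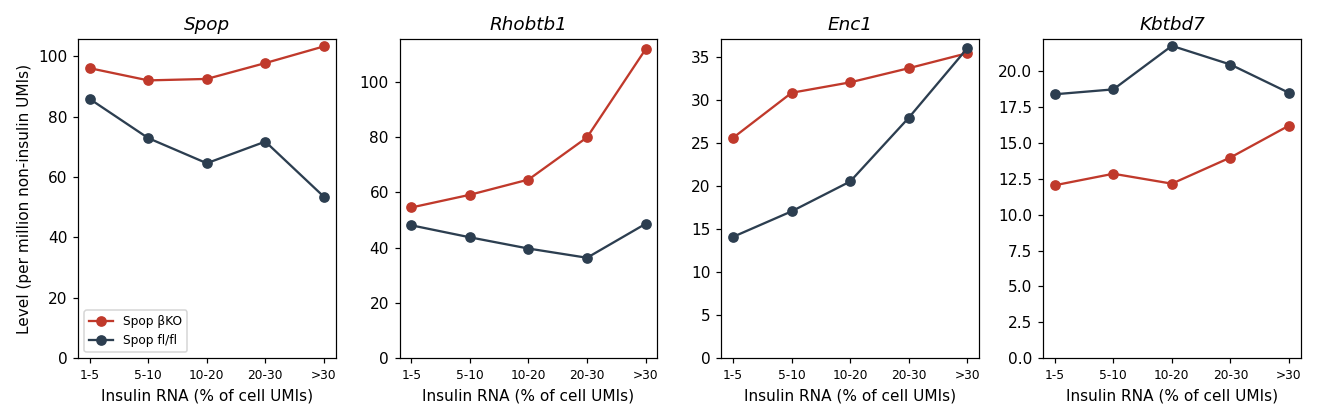
Level of 4 members (CPM of the UMIs outside Ins1 and Ins2) in insulin-leading cells of the Spop βKO (red) and the Spop fl/fl library (dark blue) by the share of a cell's UMIs from insulin, as 1 sum per point. Rhobtb1 and Spop lie farthest apart above 30% insulin, where Enc1 has the same level in both libraries.

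In Gcg-leading cells 0 of 37 members at or above 10 CPM passed the fold, where 1.53% of 8714 genes did. The members' median log2 ratio there was −0.01, within −0.36 to 0.32, and that of all genes 0.00. The ratio farthest from 0 was that of Klhl24, at −0.36 (50.6 CPM in the Spop βKO and 65.1 CPM in the Spop fl/fl library). Klhl20, at 10.3 CPM in the Spop βKO and 12.96 CPM in the Spop fl/fl library, and Enc1, at 14.8 CPM in the Spop βKO and 18.5 CPM in the Spop fl/fl library, both had −0.33, and the interval of Klhl20 held 0. The upper end was Nedd8. Insulin and the other beta markers summed to 12748 CPM in the Spop βKO and 6312 CPM in the Spop fl/fl Gcg-leading cells, and their part in these ratios was not tested.

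Between cell classes, the adaptors Klhl13 and Rhobtb2 were higher in Gcg-leading than in insulin-leading cells, and no other member was called. These are 2 of 43 members, where edgeR's quasi-likelihood test with Benjamini-Hochberg adjustment called 24.3% of the 13457 genes tested (12.8% higher and 11.5% lower in Gcg-leading cells). The members' median difference was 0.02 on the log2 scale, and that of all genes 0.00. At an unadjusted threshold of 0.05 the same test gave 7 members. The share of all genes at that threshold is not given here, so the 7 cannot be set against a background.

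Klhl13 (chrX:23219271-23365082, minus strand, mm10), a Kelch-type adaptor, was the least abundant member in insulin-leading cells. It had 15.04 CPM in Gcg-leading cells, against 1.03 CPM in insulin-leading cells, of the Spop βKO library. In the Spop fl/fl library it had 14.4 CPM in Gcg-leading and 1.06 CPM in insulin-leading cells, so the classes did not overlap. The edgeR estimate was a log2 difference of 3.81, with an adjusted p of 7.204e-13, and the ratio was 3.87 (3.43 to 4.33) within the Spop βKO and 3.77 (3.31 to 4.26) within the Spop fl/fl library. Thinned to 3000 UMIs, 5.07% (95% Clopper-Pearson interval 3.78 to 6.65%) of 966 Spop βKO and 3.47% (2.64 to 4.47%) of 1644 Spop fl/fl Gcg-leading cells had a Klhl13 UMI. Among insulin-leading cells the share was 0.198% (0.0952 to 0.365%) of 5039 Spop βKO and 0.198% (0.0729 to 0.432%) of 3023 Spop fl/fl cells. Thinning left out 58 Spop βKO and 101 Spop fl/fl Gcg-leading cells of lower depth, and 2013 Spop βKO and 853 Spop fl/fl insulin-leading cells. Before thinning the shares were 10.1% in Spop βKO and 11.7% in Spop fl/fl Gcg-leading cells, with medians of 6268 Spop βKO and 7843 Spop fl/fl UMIs per cell. In insulin-leading cells they were 0.908% in the Spop βKO and 1.11% in the Spop fl/fl library, with medians of 7723 Spop βKO and 8856 Spop fl/fl UMIs per cell. A processed pseudogene, Gm14523, overlaps Klhl13 on the same strand, and Klhl9 and Klhl13 are close paralogs, so how reads of these were divided is uncertain.

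Rhobtb2 (chr14:69784990-69805636, minus strand) had 14.1 CPM in Gcg-leading and 8.15 CPM in insulin-leading cells of the Spop βKO library. In the Spop fl/fl library it had 14.9 CPM in Gcg-leading and 8.12 CPM in insulin-leading cells. The log2 difference was 0.84 by edgeR, with an adjusted p of 0.01164, and neither DESeq2 nor the fit without the library block called it. Next came Klhl9, with 68.9 CPM in Gcg-leading and 52.8 CPM in insulin-leading cells of the Spop βKO library and 67.5 CPM in Gcg-leading and 52.3 CPM in insulin-leading cells of the Spop fl/fl library, a log2 difference of 0.38 with an edgeR adjusted p of 0.074. With somatostatin cells taken by a gate chosen after the data had been seen, Klhl9 passed, with an edgeR adjusted p of 0.0446, as 1 of 3 members called where 26.3% of all genes were. Spop itself had a log2 difference of 0.02 between Gcg- and insulin-leading cells, Cul3 0.13 and Keap1 −0.01, and none of them was called.

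**Figure D4:**
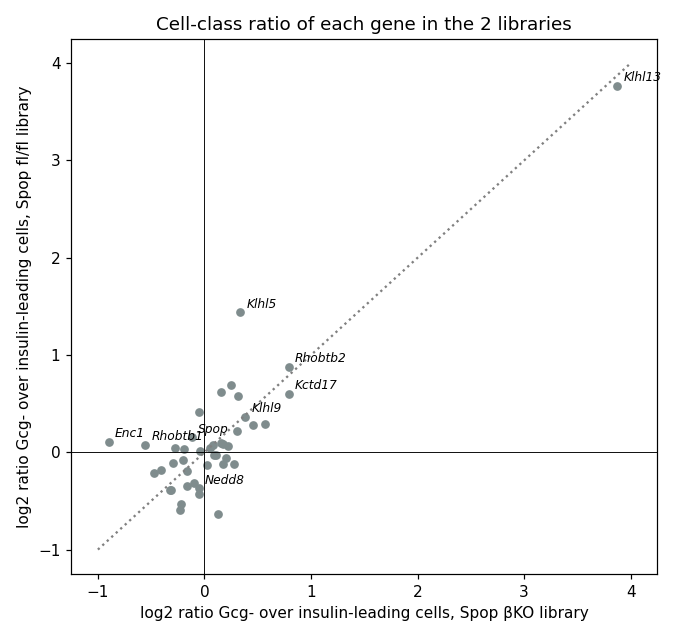
Log2 ratio of Gcg-leading over insulin-leading cells for each of the 43 members in the Spop βKO library (horizontal) and the Spop fl/fl library (vertical), with the line of equality dotted. Klhl13 lies alone near 3.8 on both axes, Rhobtb2 near 0.8, and Enc1 and Rhobtb1 lie below 0 in the Spop βKO library alone.

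Somatostatin-expressing cells were few, and depth limits what they show. By the fixed hormone rule the Sst-leading sums held 65641 UMIs in the Spop βKO and 84766 UMIs in the Spop fl/fl library, in which Cul3 had 8 UMIs in the Spop βKO and 9 in the Spop fl/fl library, and Spop 4 in each. A count of 0 there allows a level of up to 41.0 CPM in the Spop βKO and 31.8 CPM in the Spop fl/fl library (3 counts). Of the 43 members edgeR called 1 against insulin-leading cells, Lztr1 with 0 UMIs in both sums, where it called 1.48% of all genes, and the limit that these counts allow gives it no usable fold. Against Gcg-leading cells edgeR called 0 members, where it called 0.669% of all genes, and DESeq2 called 0. Below an unadjusted 0.05 by edgeR lay 5 members, with Klhl28, Kbtbd7, Lztr1 and Kctd10 among them at 0 UMIs in both Sst-leading sums. The share of all genes below that threshold is not given here. Between the libraries 0 members passed the fold, where 3.56% of genes did.

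With the somatostatin gate chosen after the data had been seen, edgeR called 5 of 43 members against insulin-leading cells, where it called 7.49% of 13863 genes (3.92% higher and 3.57% lower). Klhl13 was again higher: it had 9.49 CPM in somatostatin-gated cells, against 1.02 CPM in insulin-leading cells, of the Spop βKO library and 3.998 against 1.04 CPM in the Spop fl/fl library. Those levels rest on 6 UMIs in the Spop βKO and 3 UMIs in the Spop fl/fl gated cells, and the edgeR log2 difference was 2.67 with an adjusted p of 0.01564. Within the Spop βKO library the ratio was 3.22 (1.73 to 4.42). Within the Spop fl/fl library it was 1.94 (−0.39 to 3.58), an interval that held 0. Rhobtb1, Klhl21, Klhl12 and Lztr1 were lower. Rhobtb1 had 11.1 CPM in gated against 62.3 CPM in insulin-leading cells of the Spop βKO library and 18.7 against 40.3 CPM in the Spop fl/fl library, a log2 difference of −1.73 by edgeR with an adjusted p of 0.003195.

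Klhl12, which in human cells helps to build large COPII transport vesicles, had 14.2 CPM in gated against 30.1 CPM in insulin-leading cells of the Spop βKO library and 15.99 against 35.5 CPM in the Spop fl/fl library. Klhl21 had 7.91 CPM in gated against 25.8 CPM in insulin-leading cells in the Spop βKO and 17.3 against 34.4 CPM in the Spop fl/fl library, and Lztr1 had 19.0 CPM in gated against 44.4 CPM in insulin-leading cells of the Spop βKO and 30.6 against 57.7 CPM in those of the Spop fl/fl library. Their edgeR adjusted p values were 0.02104, 0.02336 and 0.01539. Against Gcg-leading cells edgeR called Rhobtb1 alone, with a log2 difference of −1.497 and an adjusted p of 0.01568, where it called 3.88% of genes. With no TMM factor all genes in somatostatin cells would stand higher against insulin-leading cells by 0.26 in the Spop βKO and 0.29 in the Spop fl/fl library on the log2 scale, less than the size of these differences. Between the libraries Spop alone passed the fold in gated cells, at 87.0 CPM from 55 UMIs in the Spop βKO and 49.3 CPM from 37 UMIs in the Spop fl/fl library, where 6.02% of genes did. Its log2 ratio was 0.82, with a wide counting interval of 0.19 to 1.46. The number of members at or above 10 CPM in gated cells is not given here. The gated cells also held Pyy, at 15430 CPM in the Spop βKO and 6597 CPM in the Spop fl/fl library. In them the 9 beta markers summed to 22220 CPM in the Spop βKO and 9180 CPM in the Spop fl/fl library. The 8 alpha markers summed to 1688 CPM in the Spop βKO and 4957 CPM in the Spop fl/fl library. The 6 delta markers summed to 12613 CPM in the Spop βKO and 11029 CPM in the Spop fl/fl library, with Lepr at 0 in both, and the 4 PP markers to 19497 CPM in the Spop βKO and 9114 CPM in the Spop fl/fl library. The part of the beta, alpha and PP markers in the results for gated cells was not tested.

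**Figure D5:**
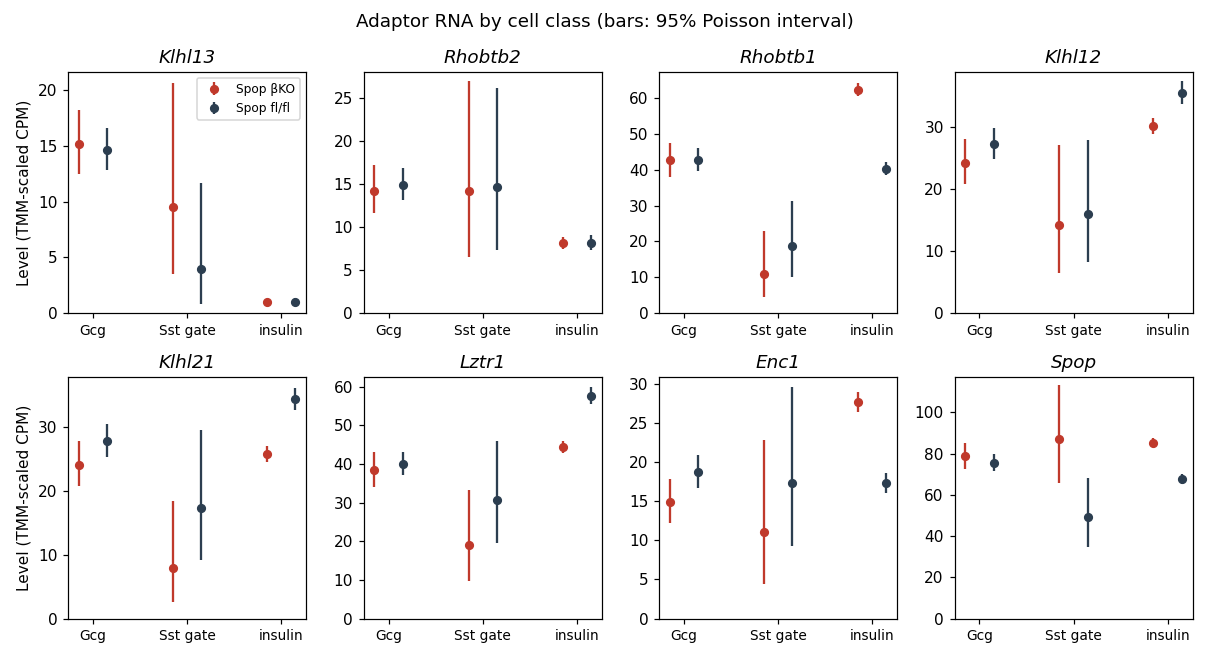
Level of 8 members (TMM-scaled CPM, axes starting at 0) in Gcg-leading, somatostatin-gated and insulin-leading cells of the Spop βKO library (red) and the Spop fl/fl library (dark blue), with 95% Poisson intervals as bars, scaled with the somatostatin-gated sums in place of the Sst-leading ones. Klhl13 is near 1 CPM only in insulin-leading cells, and Rhobtb1 is lowest in somatostatin-gated cells in both libraries.

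Genes around the ligase were counted from lists of BTB adaptors outside the 43, of NEDD8 and COP9 genes, of other cullins and of NRF2 targets. Of 60 further BTB adaptors 58 were in the tables and 22 were at or above 10 CPM in insulin-leading cells, of which 2 were past the fold upward and 1 downward in the Spop βKO library, where 10.0% of all genes passed it. Kctd12b had 15.7 CPM in the Spop βKO and 4.92 CPM in the Spop fl/fl library, Rcbtb2 27.8 CPM in the Spop βKO and 12.8 CPM in the Spop fl/fl library, and Kctd15 8.57 CPM in the Spop βKO and 16.4 CPM in the Spop fl/fl library. Between classes edgeR called 4 of 40 higher and 7 lower in Gcg-leading cells, where it called 24.3% of all genes. Klhl32 had 18.6 CPM in Gcg-leading against 56.8 CPM in insulin-leading cells of the Spop βKO library and 17.7 against 51.9 CPM in the Spop fl/fl library, with an edgeR adjusted p of 2.772e-09. Log2 differences over the 40 ran from −1.81 to 3.39, and the genes at both ends lay under 10 CPM.

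Of the 21 NEDD8 and COP9 genes at or above 10 CPM in insulin-leading cells 0 passed the fold between libraries, where 10.0% of all genes did. Their median log2 ratio was −0.17, with 17 of 21 below 0, where all genes had a median of −0.04. That median is itself below 0, and the share of all genes below 0 is not given here. The farthest was Gps1, a COP9 subunit, with 72.1 CPM in the Spop βKO and 100.2 CPM in the Spop fl/fl library. Between classes edgeR called 5 of 22 lower and 0 higher in Gcg-leading cells, where it called 11.5% of all genes lower and 12.8% higher (24.3% either way). Ube2m, the enzyme that hands NEDD8 to cullins, had 65.5 CPM in Gcg-leading against 131.8 CPM in insulin-leading cells of the Spop βKO library and 59.8 against 105.0 CPM in the Spop fl/fl library, with an edgeR adjusted p of 9.73e-06. Dcun1d3, a co-factor of NEDD8 transfer, and the COP9 subunit Cops2 differed by −0.67 and −0.53 on the log2 scale.

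Of 12 other cullins and partners 0 passed the fold between libraries, and edgeR called 1 of 12, Cul2, lower in Gcg-leading cells, by −0.71 on the log2 scale. The shares of all genes were 10.0% and 24.3%. Of 9 NRF2 genes at or above 10 CPM in insulin-leading cells 1 passed the fold, Srxn1 for sulfiredoxin, with 62.9 CPM in the Spop βKO and 120.6 CPM in the Spop fl/fl library. The median log2 ratio of the 9 was −0.22, where all genes had a median of −0.04. Between classes edgeR called 2 of 11 NRF2 genes higher and 1 lower in Gcg-leading cells, near the 24.3% of all genes. Slc7a11, the cystine transporter, had 12.8 CPM in Gcg-leading against 5.51 CPM in insulin-leading cells of the Spop βKO library and 15.1 against 8.19 CPM in the Spop fl/fl library, and Gclm, a subunit of glutathione synthesis, had 406 CPM in Gcg-leading against 254 CPM in insulin-leading cells of the Spop βKO and 376 against 260 CPM in those of the Spop fl/fl library.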

How the data were processed

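Both deposited tables hold raw counts of UMIs for each gene in each barcode, and their headers name Cell Ranger 6.0.0. The submitters' processing notes list mm10, R 4.1.1 and Seurat 4.1.0. How barcodes were called as cells is not given in the sources used here. A barcode needed 500 detected genes and no more than 15% of its UMIs from mitochondrial genes (872 and 551 failed in the Spop βKO library, 517 and 647 in the Spop fl/fl library). Cells were assigned by the leading hormone among 4 sets (Ins1 with Ins2, Gcg, Sst, Ppy). Cells without a 2-fold lead, or with a leading hormone under 1% of their UMIs, were left out. Together these were 652 in the Spop βKO and 1107 in the Spop fl/fl library. No doublet caller was run, and this rule removes only doublets of different hormones. Counts were summed per class and library and scaled with TMM factors. Shares of cells have exact Clopper-Pearson intervals and levels exact Poisson intervals at 95%, which cover counting error only.

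Class differences were tested with edgeR 4.0.16 (R 4.3.3, quasi-likelihood, all 6 sums in 1 fit, library as block, Benjamini-Hochberg over all genes, threshold 0.05). With the library as block, the p-values measure how far class differences vary between these 2 libraries, which are of different genotype. Genotype effects that differ by class enter that spread, and all 6 sums, the small Sst-leading ones included, share its estimate. DESeq2 1.42.0 was an alternative. On simulated data for Gcg- against insulin-leading cells (13014 genes), the test recovered 23 of 50 genes changed 1.5-fold, 45 of 50 changed 2-fold and 50 of 50 changed 4-fold, with 6 false calls. The simulated counts used the spread that the fit itself had estimated and held no genotype effect that differs by class. They therefore do not give the rate of false calls in the real sums. With no TMM factor all genes would shift by −0.04 on the log2 scale between the libraries' insulin-leading cells and by up to 0.29 against somatostatin cells. Python 3.11.15 with numpy 2.4.6, scipy 1.17.1 and pandas 2.3.3 was used, and GENCODE positions were matched by identifier. The members, lists, markers and tests were chosen with earlier results of these data known. Genes were named in full by a rule: the core, Spop, Spopl and Keap1, the 6 most abundant adaptors, members called between classes with at least 1.5-fold in both libraries, and members past 1.5-fold between libraries; other members named are neighbours in those orders, and of each list up to 3 genes averaging 10 CPM or more are named, those whose ratios lie farthest from 0 (between classes, only called genes). The somatostatin gate, the division by insulin share and the GC box were added after the data had been seen.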

Additional observations from a re-analysis of the deposited data

Results flagged for a closer look

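For 3 members the ratio of the Spop βKO over the Spop fl/fl library pointed in opposite directions in insulin-leading and Gcg-leading cells. Both counting intervals left out 0, but for each member 1 of them came near it. The difference itself was not tested, since there is 1 library per genotype. The share of all genes that meet the same rule is not given here, so the 3 cannot be set against a background. Enc1 had log2 ratios of 0.68 in insulin-leading and −0.33 (−0.65 to −0.01) in Gcg-leading cells, a difference of 1.01. Klhl24 had 0.11 (0.02 to 0.19) in insulin-leading and −0.36 in Gcg-leading cells, a difference of 0.47. With no TMM factor every insulin-leading ratio would shift by −0.04, which is more than the lower end for Klhl24. Btbd9 had 0.23 in insulin-leading and −0.24 (−0.44 to −0.05) in Gcg-leading cells, also a difference of 0.47.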

How the results depend on the processing

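Of insulin-leading members past the fold, the count of 3 became 1 with a limit of 25 CPM (Rhobtb1), 1 with each cell weighted equally (Enc1), and 5, 8 and 7 in the cells with 10 to 20%, 20 to 30% and over 30% insulin. Ratios that changed sign were those of Spopl, 0.031 at 20 to 30% and 0.172 over 30% insulin, and over 30% also Cul3, 0.014, and Enc1, −0.023. The ratios of Nedd8 and Rbx1, at 0.008 and 0.021, also changed sign, to −0.032 and −0.019 with no TMM factor, for Nedd8 to −0.059, −0.134 and −0.05 in the cells with 10 to 20%, 20 to 30% and over 30% insulin, and for Rbx1 to −0.006 in heat shock-low cells. Kbtbd7 no longer passed with median-of-ratios size factors (a ratio of −0.573), with a 5-fold hormone lead and without heat shock-high cells, leaving 2, and with no low-value limit Klhl5 made 4. The count of 0 in Gcg-leading cells became 1 with no low-value limit (Kbtbd8) and 1 in cells of 5000 to 20000 UMIs (Klhl24). The count of 0 in Sst-leading cells became 18 with each cell weighted equally, a mean over 8 and 7 cells, and 1 with the somatostatin gate. Equal weighting carries no counting interval, so its counts in insulin-leading and Sst-leading cells rest on the fold and the level limit alone. That rule is looser than the one behind the other counts, so the 18 does not isolate the weighting. For Gcg- against insulin-leading cells, 2 calls became 1 with no replicate block (library unpaired), 1 by DESeq2, 3 with the somatostatin gate (adding Klhl9) and 5 with only the 4 sums compared (adding Klhl9, Klhl24 and Kctd17). Klhl13 was called in each of these, with Rhobtb2 lost without the block (edgeR adjusted p of 0.0854) and by DESeq2 (adjusted p of 0.246). All genes called numbered 3265 against 1656 without the block, and 1173 by DESeq2. For Sst-leading against insulin-leading cells, 1 call became 0 with at most 10% mitochondrial UMIs, 0 with a 5-fold hormone lead, 0 with no replicate block and 0 by DESeq2, and 5 with the somatostatin gate, which also gave 1 in place of 0 against Gcg-leading cells. Within single libraries the log2 difference was 3.77 to 3.87 for Klhl13 and 0.79 to 0.88 for Rhobtb2. No paired analysis was possible between the genotypes because each has 1 library. The causes of these shifts were not tested. Depth limits the somatostatin cells and adaptors under 10 CPM.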

Other observations

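Ppy-leading cells, with pancreatic polypeptide RNA in front, entered no comparison and numbered 106 in the Spop βKO and 115 in the Spop fl/fl library. Klhl13 stood there at 9.84 CPM in the Spop βKO library (16 UMIs, 95% Poisson interval 5.63 to 15.98) and at 4.42 CPM in the Spop fl/fl library (12 UMIs, 2.29 to 7.73), without TMM scaling. Rhobtb1 had 27.7 CPM (20.2 to 37.0) in the Spop βKO and 22.5 CPM (17.2 to 28.9) in the Spop fl/fl Ppy-leading cells.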
